A study of Homo sapiens with 6 samples.

Results

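The genes of the cyclin-dependent kinase (CDK) inhibitors were examined in MM1.S, an established human multiple myeloma cell line, after knockdown of beta-catenin, the Wnt co-activator encoded by CTNNB1. A total of 8 genes were named for the set: the CIP/KIP genes CDKN1A, CDKN1B and CDKN1C, the INK4 genes CDKN2A, CDKN2B, CDKN2C and CDKN2D, and CDKN3. Every probe set that the array annotation pairs with one of these symbols was taken, which gave 16 of 54675 probe sets and 7 genes of the 19775 with a probe set of their own. The expression of CDKN2C was not analysed here. The control group was 3 cultures of MM1.S cells infected with a lentivirus carrying a control shRNA (titled pKLO GFP control), and the knockdown group was 3 cultures infected with the beta-catenin shRNA virus. In both groups GFP-positive cells had been sorted, and the protocol describes triplicate cultures and no separate infections, so p-values measure the spread between these cultures. The labels name 1 cell line and do not give the hairpin sequence. The titles call the cultures biological replicates, without saying whether each came from its own infection. The tests are therefore read, as a caution, as describing one line and one sorted population for each vector.

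CDK inhibitors are proteins that bind cyclin-dependent kinases and hold the cell cycle back. CIP/KIP proteins bind complexes of CDK with cyclins D, E, A or B, while INK4 proteins bind CDK4 and CDK6 and keep D-type cyclins from activating them, so that RB stays unphosphorylated and E2F factors stay bound. CDKN3 is of another kind: it is a phosphatase that removes an activating phosphate from CDK1 and CDK2, and its own transcript is made in proliferating cells. In plasma cells and myeloma, inhibitors of both classes are known as regulators of cell cycle exit and as targets of deletion or promoter methylation.

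In the knockdown cultures CDKN1A was 4.28-fold higher, CDKN1C was higher on 4 of its 5 probe sets by 1.58-fold to 1.92-fold, and CDKN3 was lower on both of its probe sets, with 35.4% and 35.2% of the control level. CDKN1B was 1.16-fold higher and was not called (95% interval of the log2 change 0.03 to 0.41). None of the 7 probe sets of the INK4 genes CDKN2A, CDKN2B and CDKN2D was called by limma, and 0 of them had an unadjusted p under 0.05. Over all probe sets only 23.2% were called, so most probe sets were not. In RNA of whole cultures, fewer cells with a transcript and less of it per cell cannot be told apart. The deposited values are log2 values with a floor at 4, the log2 of 16, so folds are of signal + 16, which makes the change of a dim probe set look smaller than it is. A probe set was called when its limma p-value, adjusted by Benjamini-Hochberg over all 54613 non-control probe sets, was under 0.05.

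The upstream sequences of the 2 genes with the largest changes are shown because they differ in their motifs. They are the 250 bases before the RefSeq start (GRCh38.p14), on the plus strand, at chr6:36678464-36678713 for CDKN1A and chr14:54396757-54397006 for CDKN3. Capitals mark GC boxes (GGGCGG) in CDKN1A, and in CDKN3 a CHR element (TTTGAA) and CCAAT boxes (CCAAT), each on either strand.
CDKN1A: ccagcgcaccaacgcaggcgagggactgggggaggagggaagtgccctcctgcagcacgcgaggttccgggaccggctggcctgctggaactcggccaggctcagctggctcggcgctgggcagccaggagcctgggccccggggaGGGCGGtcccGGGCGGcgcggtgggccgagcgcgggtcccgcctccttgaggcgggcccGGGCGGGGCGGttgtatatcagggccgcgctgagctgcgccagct
CDKN3: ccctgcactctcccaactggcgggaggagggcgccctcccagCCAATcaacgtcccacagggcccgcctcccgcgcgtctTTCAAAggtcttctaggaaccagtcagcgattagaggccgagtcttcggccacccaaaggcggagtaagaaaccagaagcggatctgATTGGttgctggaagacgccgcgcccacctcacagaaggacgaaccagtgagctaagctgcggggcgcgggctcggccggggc

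The CDKN1A window held 4 GC boxes, which are the letters bound by SP and KLF factors, beginning 104, 94, 45 and 40 bases upstream of the start. The last pair overlaps by a base. The CDKN3 window held 1 CHR element on the minus strand, the letters bound by the MuvB complex in many cell cycle genes. Its base farthest from the start lay 170 bases upstream. The window also held 2 CCAAT boxes, with farthest bases 208 bases upstream on the plus strand and 83 bases upstream on the minus strand. Over the 35116 windows of the RefSeq promoter table, 42.6% held a GC box, 13.3% a CHR element and 32.0% a CCAAT box. Of the 7 members with a window in that table, 6 held a GC box in at least 1 window, and the exception was CDKN3. These 7 include CDKN2C, whose expression was not analysed, and leave out CDKN1C, which had no window. In 1 of the 7, CDKN3, a CHR element was found, and 4 held a CCAAT box. The shares over all promoters are per window, and some members had several windows. Counted by window, 7 of the 10 member windows held a GC box, 1 a CHR element and 4 a CCAAT box. These matches describe letters in the window; binding was not measured.

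Array medians were 5.44 to 5.50 in control and 5.50 to 5.54 in knockdown arrays, and the correlation of 2 arrays over probe sets, which are not independent (Pearson's r), was 0.945 to 0.954 between groups and at least 0.980 within them. CTNNB1 fell by 1.33 on its brightest probe set (SE 0.10, limma, adjusted p = 2.27e-07), was higher by 0.33 on a second (adjusted p = 0.0390) and differed by −0.07 on the third (adjusted p = 0.716), so the targeted transcript was lower on 1 of 3 probe sets. All 10 plasma cell markers lay at or above 5.49, the median of all probe set means, and 4 of them were higher and 3 lower. By their brightest probe sets 12939 of all 19775 genes lay there, of which 25.3% were called higher and 22.0% lower. Of the markers of lymphocytes other than plasma cells, of myeloid cells, of fibroblasts and of kidney packaging cells, 15 of 28 with a probe set lay at or above 5.49. Of these 15, 2 were higher and 0 lower. Control probe sets for ribosomal RNA read higher in knockdown arrays, 9.92 ± 0.26 against 9.02 ± 0.54 (SD, n = 3 each; exact permutation p = 0.1, the smallest that 3 against 3 allows). For ACTB, the 3′ control probe set exceeded the 5′ one by 0.67 ± 0.19 in control and by 0.58 ± 0.05 in knockdown arrays (SD, n = 3 each; exact permutation p = 0.7). The part of the ribosomal RNA difference in the results below was not tested.

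CDKN1A encodes p21, the CIP/KIP inhibitor that p53 and several stress pathways induce and that also binds the replication clamp PCNA. Its probe set 202284_s_at read 7.52, 7.27 and 7.33 in the control cultures and 9.45, 9.53 and 9.43 in the knockdown cultures. All knockdown values were above all control values, and the knockdown cultures lay closer together (SD 0.05 against 0.13, n = 3 each). The rise was 2.10 on the log2 scale (SE 0.09, 95% interval 1.91 to 2.28; limma, adjusted p = 9.85e-10). It was the 42nd largest rise among the 12939 genes tested, each read by its brightest probe set at or above 5.49. Across the other settings of the test, which are given in the closing section, the rise ran from 1.82 to 2.20 and remained called in each of the 17.

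CDKN1C encodes p57, the CIP/KIP inhibitor of an imprinted locus, and was read by 5 probe sets. The only one above the median level, 213348_at, read 5.67, 5.23 and 5.36 in control and 6.30, 6.14 and 5.86 in knockdown cultures, a rise of 0.68 (SE 0.14; limma, adjusted p = 0.00300). The dimmer 219534_x_at read 4.77, 4.97 and 4.93 against 6.06, 5.78 and 5.66, a rise of 0.94 (SE 0.13; adjusted p = 8.97e-05). The groups did not overlap on either. Probe set 216894_x_at rose from 4.66 ± 0.15 to 5.59 ± 0.02 (SD, n = 3 each; adjusted p = 5.69e-05) and 213182_x_at rose from 4.66 ± 0.14 to 5.32 ± 0.15 (SD, n = 3 each; adjusted p = 0.00151). On the fifth, 219533_at, the groups overlapped, with 4.70 ± 0.09 in control and 4.74 ± 0.13 in knockdown cultures (SD, n = 3 each; adjusted p = 0.869). Its 95% interval ran from −0.23 to 0.31, which lies below the rise on each of the other 4.

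The size of the CDKN1C rise depended on the offset more than that of the brighter members, because its probe sets lay between 4.48 and 6.30. With an offset of 1 in place of 16 the 4 called probe sets rose by 0.95 to 1.70, or 1.94-fold to 3.25-fold, and with an offset of 64 by 0.26 to 0.44. They remained called under both. Of the 4 called probe sets, 3 carry the array maker's _x_ mark, which says that some probes may also bind other transcripts. Over all probe sets with that mark, 20.0% were called higher. The one without the mark, 213348_at, was not called when tested against a 1.2-fold change (limma treat, adjusted p = 0.0613). In the fit by gene, which tests fewer features, the same probe set was called against that change (limma treat, adjusted p = 0.0107). What distinguishes the transcript stretch read by 219533_at was not analysed here.

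CDKN1B encodes p27, the CIP/KIP inhibitor whose protein level is mainly set by SKP2-dependent degradation. Its probe set 209112_at read 8.56, 8.37 and 8.67 in control and 8.70, 8.84 and 8.71 in knockdown cultures. The knockdown values were all higher, but the lowest of them exceeded the highest control by less than the SD of the control cultures, 0.15. The change was 0.22 (SE 0.09, 95% interval 0.03 to 0.41) and was not called (limma, adjusted p = 0.0989). It was called after quantile normalization (0.25, adjusted p = 0.0214), after cyclic loess (0.23, adjusted p = 0.0383), among probe sets above the 75th percentile of level (adjusted p = 0.0408) and without control replicate 3 (0.29, adjusted p = 0.0472), and was 0.14 without control replicate 2 (adjusted p = 0.314). The adjusted p ran from 0.0214 to 1 over all settings. In the fit by gene CDKN1B was not called (adjusted p = 0.0508), and it was called in 7 of 19 other settings, among them without control replicate 1 (0.23, adjusted p = 0.0460) and without control replicate 3 (0.29, adjusted p = 0.0227).

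**Figure D1:**
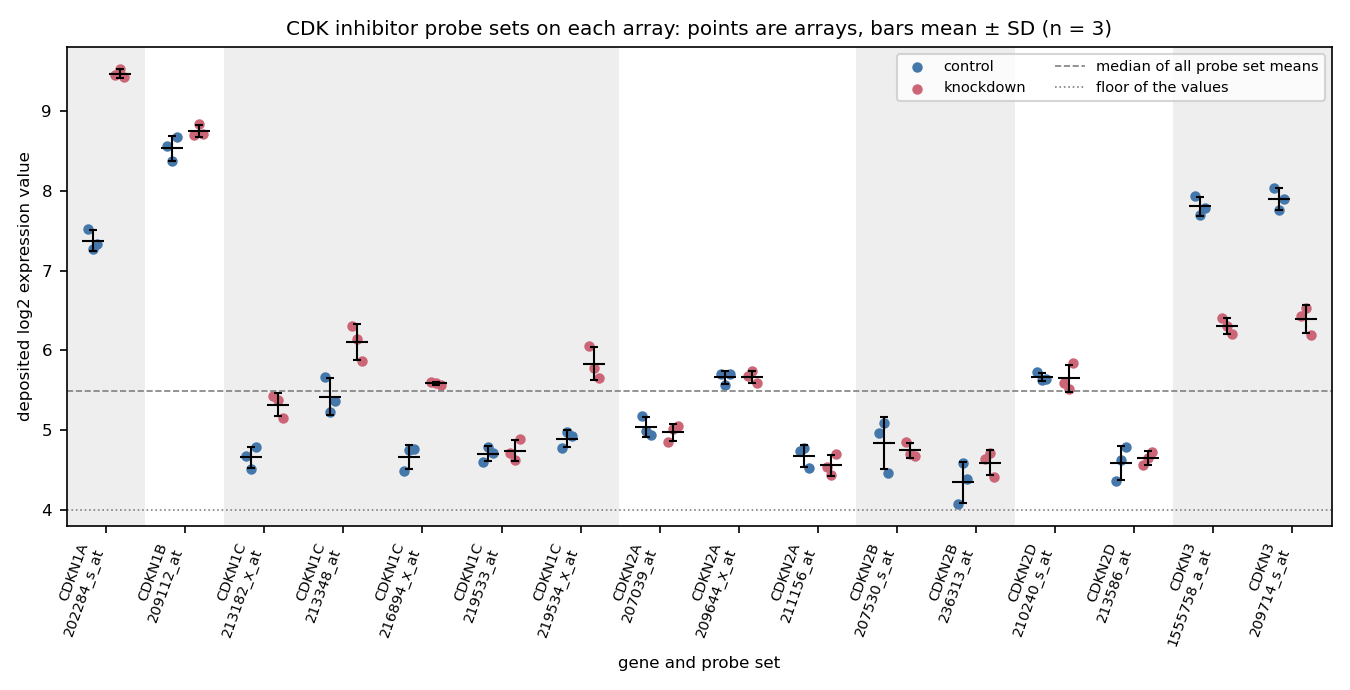
Deposited log2 expression values (y axis) of the 16 CDK inhibitor probe sets (x axis) in 3 control and 3 knockdown arrays, with points for arrays and bars for mean ± SD. CDKN1A is near 7.37 in control and 9.47 in knockdown arrays, both CDKN3 probe sets are lower in the knockdown arrays, and the INK4 probe sets lie between 4.07 and 5.84 in both groups.

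The INK4 probe sets were dim and their groups overlapped on each of the 7. Over all probe sets the groups were free of overlap for 37.2%, and 23.2% were called. Overlap without a call was thus common on these arrays and is not particular to INK4 genes. CDKN2A, which encodes p16 and, in another reading frame, the MDM2 inhibitor ARF, was read by 3 probe sets. The brightest, 209644_x_at, read 5.71, 5.57 and 5.70 in control and 5.68, 5.74 and 5.59 in knockdown cultures, a difference of 0.01 (95% interval −0.23 to 0.24; limma, adjusted p = 0.973). The other CDKN2A probe sets differed by −0.07 and −0.12 (adjusted p = 0.768 and 0.591).

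CDKN2B, which encodes p15, the INK4 inhibitor next to CDKN2A on chromosome 9, differed by −0.09 on 207530_s_at and by 0.25 on 236313_at (limma, adjusted p = 0.739 and 0.295). The second read 4.07, 4.58 and 4.38 in control and 4.64, 4.72 and 4.41 in knockdown cultures, with 1 control culture close to the floor. CDKN2D, which encodes p19, differed by −0.02 on 210240_s_at (5.66 ± 0.05 against 5.65 ± 0.17, SD, n = 3 each; adjusted p = 0.944) and by 0.06 on 213586_at (adjusted p = 0.812). Over the 7 INK4 probe sets the 95% intervals reached from −0.43 to 0.57. Since 5 of the 7 lay below the median level, where the offset shrinks differences, these intervals do not bound the change of the transcripts.

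CDKN3 encodes the KAP phosphatase of CDK1 and CDK2. Probe set 209714_s_at read 8.04, 7.76 and 7.89 in control and 6.43, 6.54 and 6.20 in knockdown cultures, and 1555758_a_at read 7.93, 7.70 and 7.78 against 6.40, 6.31 and 6.20. The highest knockdown value lay below the lowest control value on both. The falls were nearly equal, −1.51 (SE 0.11; limma, adjusted p = 2.97e-07) and −1.50 (SE 0.10; adjusted p = 1.09e-07), or 2.84-fold and 2.82-fold. By its brightest probe set CDKN3 had the 120th largest fall of the 12939 genes tested. With an offset of 1 both fell by 1.70, and both remained called in each of the 17 other settings.

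**Figure D2:**
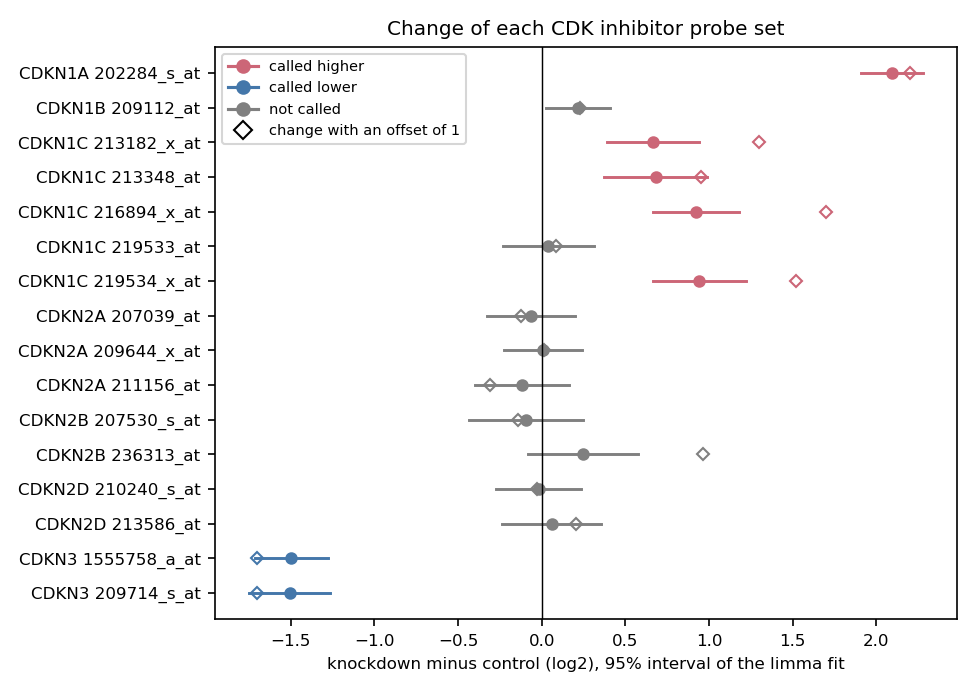
Change of each probe set (knockdown minus control, log2, x axis) with its 95% interval from limma as filled points and lines, and the same change with an offset of 1 as open diamonds. CDKN1A and 4 CDKN1C probe sets lie to the right of 0, the 2 CDKN3 probe sets lie near −1.5, and the diamonds of the dim CDKN1C probe sets lie farther from 0 than their points.

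Of the 16 member probe sets, 7 (43.8%) were called, 5 higher and 2 lower, where 23.2% of all probe sets were called, 13.3% higher and 9.95% lower. CDKN1C gave 4 of the 5 that were higher, and probe sets of 1 gene are not independent. The groups did not overlap for 8 of the 16, and for 37.2% of all probe sets. By gene, 6 members lay at or above the median level and 3 of them were called, 2 higher and 1 lower. Of those called higher, CDKN1C reached that level through its knockdown cultures (mean 5.42 in control and 6.10 in knockdown). Its entry into the test is therefore tied to its rise. These 3 of 6 stand beside 47.3% of all genes tested (25.3% higher and 22.0% lower), so the share of called members is near the background. The groups did not overlap for 4 of the 6 and for 54.4% of all genes tested. The median change was 0.11 over these 6 genes and 0.05 over all genes tested. After centring on array medians the calls over all probe sets were 6217 higher and 6964 lower, beside 7259 higher and 5434 lower in the values as deposited, and the directions of the CDKN1A, CDKN3 and 4 called CDKN1C probe sets stayed the same.

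**Figure D3:**
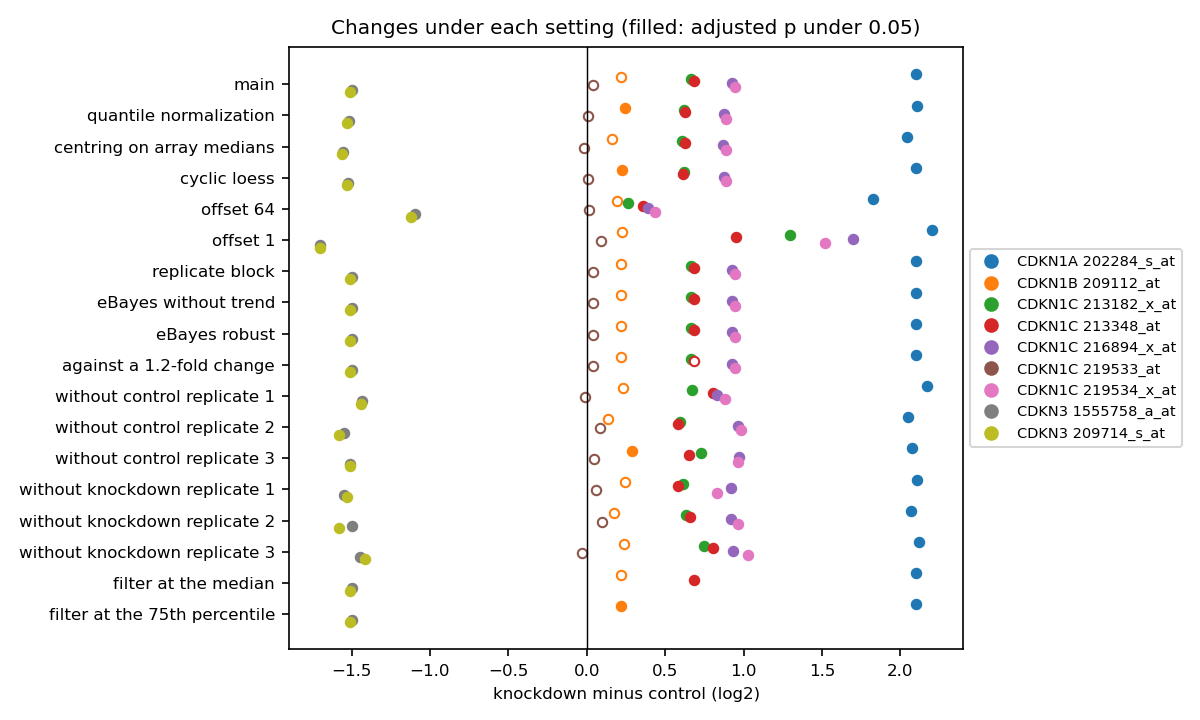
Change of the CIP/KIP and CDKN3 probe sets (knockdown minus control, log2, x axis) under each setting of the test (y axis), filled where the adjusted p was under 0.05. CDKN1A stays between 1.82 and 2.20 and the 2 CDKN3 probe sets between −1.70 and −1.09, while CDKN1B changes between called and not called.

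The array profiles most like those of CDKN1A and CDKN3 were sought by the Euclidean distance between 6 log2 values, each gene centred on its own mean, over 12938 other genes. Nearest to CDKN1A were ASNS, the asparagine synthetase (distance 0.07, change 2.08), ZFP36L1, an mRNA decay factor (0.15, change 2.09), and SESN2, sestrin 2 (0.15, change 2.18). Nearest to CDKN3 were CSE1L, a nuclear export receptor (0.10, change −1.47), DTL, the substrate receptor CDT2 that marks p21 for degradation (0.11, change −1.47), and NUF2, a kinetochore subunit (0.11, change −1.48). With 2 groups of 3 arrays this distance mostly reflects the group difference.

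The kinases and cyclins that the inhibitors bind, with the phosphatases and kinases that switch CDKs, were lower more often than higher. Of 20 such genes tested, 13 were lower, 2 higher and 5 not called, so 15 of 20 were called (beside 47.3% of all genes), with a median change of −0.64 against 0.05 over all genes. Of the kinases that INK4 proteins bind, CDK4 fell by 0.27 (SE 0.08) and CDK6 by 0.24 (SE 0.08). On their brightest probe sets the D-type cyclins CCND1, CCND2 and CCND3 differed by 0.05, −0.04 and −0.21 and were not called. CDK4 was not called without knockdown replicate 1 (−0.26, adjusted p = 0.0545), and CDK6 was not called without knockdown replicate 3 (−0.22, adjusted p = 0.0586) or when its probe sets were averaged (−0.11, adjusted p = 0.305), and also not with a variance model without trend (adjusted p = 0.0580). CCND3 was called lower without control replicate 2 (−0.26, adjusted p = 0.0486) and after each of the 3 scalings (smallest adjusted p = 0.0252). CCND2 changed by −0.49 and was called when its probe sets were averaged (adjusted p = 0.00234). Its probe set 200951_s_at fell by 0.94 (8.44 to 7.49, limma, adjusted p = 7.39e-06). On 200952_s_at and 231259_s_at it differed by −0.57 and −0.39 and was not called (limma, adjusted p = 0.0567 and 0.132).

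By their brightest probe sets, the other partners called lower all fell by more than CDK4 and CDK6. The sizes of these falls did not follow the order in which the partners act in the cycle. CDK2, the kinase p21 and p27 inhibit at the start of S phase, fell by 0.87 (SE 0.11; limma, adjusted p = 2.45e-07). Its cyclins CCNE1 and CCNA2 changed by −1.18 (SE 0.11) and −2.45 (SE 0.10). CDK1 and its cyclin CCNB1 changed by −1.70 and −2.57 (SE 0.10 each), so the transcripts of both kinases on which the CDKN3 phosphatase acts fell along with CDKN3. The CDK-activating phosphatases CDC25A, CDC25B and CDC25C fell by 2.20, 1.72 and 0.76, and the inhibitory kinases PKMYT1 and WEE1 fell by 1.02 and 0.52. PCNA, the replication clamp bound by p21, fell by 1.08 (SE 0.07). The members that were higher were CCNH, cyclin H of the CDK-activating kinase, by 0.34 (not called without control replicate 2: 0.23, adjusted p = 0.0735), and CCNB2, by 0.34 on the brightest of its probe sets. Against a 1.2-fold change CDK4, CDK6, CCNH and CCNB2 were not called (adjusted p from 0.578 to 1). Another bright CCNB2 probe set, 202705_at, fell by 1.43 (8.73 to 7.30; limma, adjusted p = 1.37e-07), and CCNB2 turned to −0.40 when its probe sets were averaged, and CDC25C turned to 0.35 when unmarked probe sets (no _x_ or _s_) were taken first.

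**Figure D4:**
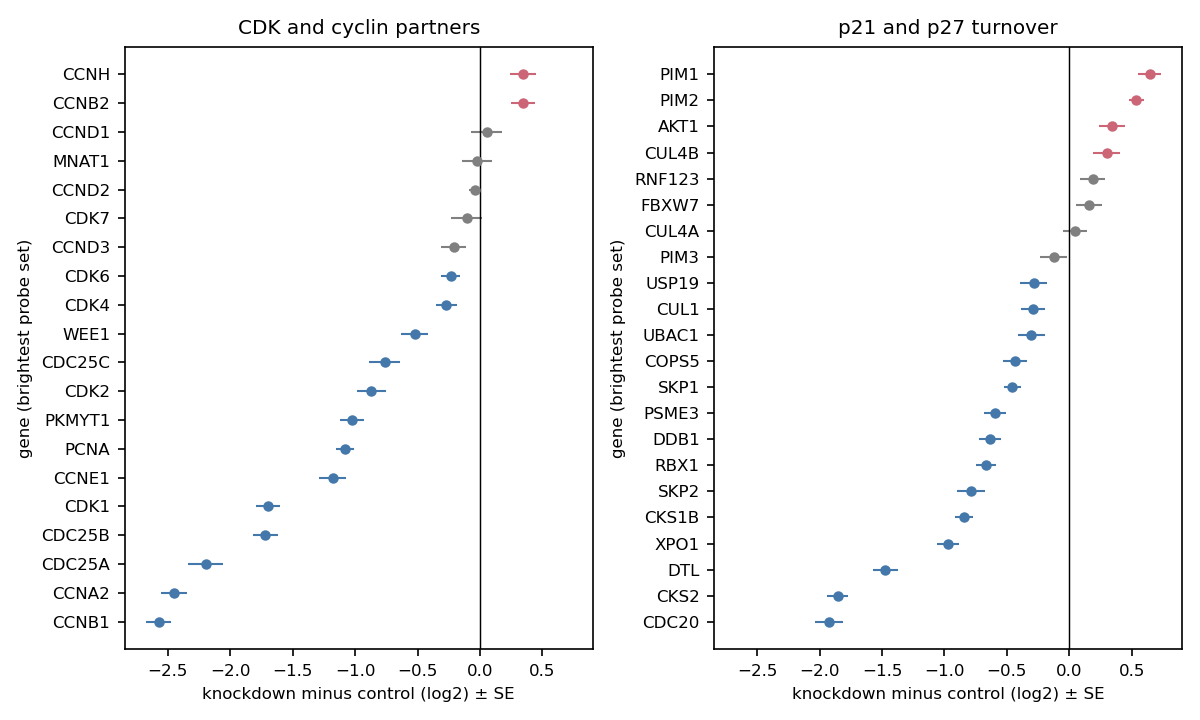
Changes (knockdown minus control, log2, ± SE of the limma fit, x axis) of tested genes (y axis) among CDK and cyclin partners (left) and p21 and p27 turnover (right), red where called higher, blue where called lower and grey where not called. CCNB1 (−2.57) has the largest fall of the left list and CDC20 (−1.93) that of the right list. The D-type cyclins, read by their brightest probe sets, lie near 0.

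Genes for the turnover and export of p21 and p27 also fell more often than they rose: of 22 tested, 14 were lower, 4 higher and 4 not called (81.8% called, beside 47.3% of all genes tested; median −0.37 against 0.05). CDC20, an activator of the anaphase-promoting complex, which degrades p21 in mitosis, fell by 1.93 (SE 0.11), and CKS2 fell by 1.85 (SE 0.08). DTL fell by 1.47 (SE 0.10), and CKS1B, the cofactor by which SKP2 recognises p27, fell by 0.84 (SE 0.07). SKP2 itself, chosen outside the rule for named genes after its values were seen, fell by 0.79 (SE 0.11; limma, adjusted p = 7.22e-07). Each of these 5 remained called in all 19 other settings of the test by gene. Transcripts were measured and not the stability of p21 or p27.

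Transcription factors and chromatin or p53 regulators known to act on the member genes were mixed. Of 35 tested, 14 were higher, 6 lower and 15 not called, a share called of 57.1%, not far from the 47.3% of all genes tested (median 0.23 against 0.05). MDM2 is in this list and among the p53 targets, and E2F1 is in this list and in that of RB and E2F. The genes with the smallest adjusted p were KLF6, JUN, KLF4 and CEBPB, which rose by 3.04, 3.70, 3.96 and 2.23. KLF4 and KLF6 are known activators of CDKN1A, and JUN is known to act on it in either direction. Among 21 p53 target genes other than CDKN1A, 13 were higher, 2 lower and 6 not called (71.4% called, beside 47.3% of all genes tested, 25.3% higher and 22.0% lower; median 0.41). SESN2 rose by 2.18, PLK2 by 1.63, TP53INP1 by 1.26 (0.41 when its probe sets were averaged) and GADD45A by 1.25. PLK2 also entered the test through the knockdown cultures (5.33 in control and 6.96 in knockdown). Its rise ran from 0.96 to 2.12 across the settings.

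Of 16 genes of RB, its relatives and the E2F factors, which stand below the CDKs, 7 were lower, 2 higher and 7 not called (56.2% called, near the 47.3% of all genes tested; median −0.19). E2F8, a repressor that is itself an E2F target, changed by −2.45 (SE 0.12) and the E2F partner TFDP1 by −0.50 (SE 0.07). E2F2 was 2.29-fold and the MuvB subunit LIN9 1.99-fold lower (limma, adjusted p = 6.48e-11 and 1.62e-07). RB1, chosen outside the rule after its values were seen, was higher by 0.50 (SE 0.12; limma, adjusted p = 0.00121) and was not called against a 1.2-fold change (adjusted p = 0.129).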

How the data were processed

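The authors deposited log2 expression values of 6 one-colour Affymetrix arrays. Per the submitters' processing notes MAS5 and PLIER were used; the role of each and the normalization between arrays are not given in the sources used here. That values have the form log2(signal + 16) was read from their floor. The values were used as deposited. Part of the labels speaks of embryos, against the named cell line, and was not used. Groups and replicate numbers came from titles. Of 54675 probe sets, 62 controls stayed out of the tests. Symbols came from the platform annotation: 41091 probe sets had 1 symbol, 1801 several and 11721 none here. Groups were compared with limma 3.58.1 (eBayes with trend, two-sided) in R 4.3.3, per probe set without a filter for members, and per gene for lists (brightest probe set of 1 symbol, mean at or above 5.49, 12939 genes). The filter used the mean of all 6 arrays, so a gene could pass it through the group where it was higher. SD is over 3 arrays a group. SE and intervals are those of the limma fit, whose variance for each feature also draws on all features tested. Named genes were the members, CTNNB1, all CDK and cyclin partners, up to 4 called genes of each list by adjusted p, the 3 nearest profiles of CDKN1A and CDKN3 and the nearest tested neighbours. Members and lists were chosen with earlier results of these data known. Replicate numbers did not pair cultures: deviations of same-numbered cultures correlated at −0.09, −0.26 and −0.30.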

Additional observations from a re-analysis of the deposited data

How the results depend on the processing

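Alternatives changed 1 choice at a time: scaling (quantile, centring, cyclic loess), offset (1 or 64), variance model, a 1.2-fold null, the filter, the probe set rule, a replicate block and leaving out each array. The CDKN1A and CDKN3 probe sets kept direction and call in all of them. Called member probe sets numbered 7, and 7 to 8 without 1 array; 4 with a filter at the median or the 75th percentile, which leave fewer members in the test. Called member genes numbered 3 to 4. With the replicate block 7 member probe sets and 3 member genes were called; no member's call changed. Against a 1.2-fold change, a stricter null by construction, 9 of the p53 targets and 5 of the RB and E2F genes were called. With a filter at the 75th percentile, where fewer genes enter the test, 5 RB and E2F genes and 5 genes at the members' loci were called. The share of all genes called under either setting is not given here. These counts are therefore not set against the 47.3% of the main setting. CDC25C turned to 0.35 and SRSF3 to 0.24 when unmarked probe sets (no _x_ or _s_) were taken first, and CCNB2 to −0.40 when its probe sets were averaged. These alternatives read other probe sets of the same gene. The SRSF3 probe set read in this way was dimmer and was not called in the fit by probe set. Of the 7 INK4 probe sets, 5 lay below the median level, where the offset shrinks differences.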

Other observations

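Genes that lie beside the members on the chromosomes were read as well. Of 18 tested genes from a list of such neighbours, 5 were higher, 4 lower and 9 not called (9 of 18 called, beside 47.3% of all genes tested). After quantile normalization 3 were higher and 4 lower, beside 3114 higher and 3203 lower over all 12939 genes tested. On chromosome 6, SRSF3, a splicing factor gene on one side of CDKN1A, fell by 1.35 (SE 0.07) and CPNE5, copine 5, the nearest tested gene on the other side, rose by 0.95 (SE 0.11; limma, adjusted p = 2.43e-08). A further gene of that stretch, the kinase STK38, fell by 1.02 (SE 0.12). The genes around CDKN1A thus moved in both directions. SRSF3 read 0.24 when unmarked probe sets (no _x_ or _s_) were taken first. That value is from 232392_at, which was not called in the fit by probe set (limma, adjusted p = 0.169). The brighter 202899_s_at, 208672_s_at and 208673_s_at changed by −1.52, −1.35 and −0.95. The dimmer 237485_at and 235324_at differed by −0.03 and −0.01. On chromosome 14, CNIH1, the nearest tested gene after CDKN3, fell by 0.52 (SE 0.10) and was not called when its probe sets were averaged (−0.17, adjusted p = 0.114), while CGRRF1 rose by 0.74 (SE 0.11). On chromosome 9, MTAP, the nearest tested gene before CDKN2A, differed by 0.04 (limma, adjusted p = 0.821).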
